A study of Rattus norvegicus with 10 samples.

Results

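The mitochondrial carriers of the Slc25 family were measured in RNA from axons of sensory neurons of adult and embryonic rats. The rule took every gene of the platform annotation with a single symbol that starts with Slc25a and a number, and the brightest probe set stood for a gene. It found 40 genes, measured by 58 probe sets, among 14217 genes in all. Expression arrays had been hybridised with axonal RNA of 5 adult samples and of 5 embryonic samples from embryonic day 16. Dorsal root ganglion explants were kept for 4 days in a chamber with compartments, and axons that had grown more than 1 cm into the outer compartment were collected. The labels name no genotype, strain or treatment, describe the same handling for both stages, and leave the age of the adult animals and any pooling of animals unstated. A further 13 Slc25a symbols of the newer RefSeq gene table (GRCr8) were not analysed here.

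Most carriers of this family sit in the inner mitochondrial membrane, which is otherwise closed to most metabolites. They exchange ADP for ATP, bring in phosphate, move citric acid cycle intermediates, amino acids, cofactors and iron, and so join the chemistry of the matrix to that of the cytosol. Neurons rely on mitochondria in the axon for ATP and for buffering of calcium, and carrier proteins are made in the cytosol from nuclear genes before import.

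Of the 40 carriers, 0 passed the test between stages at an adjusted p of 0.05 (limma, Benjamini-Hochberg over all probe sets), where 1.26% of all genes did (0.612% higher and 0.647% lower in adult samples). At an unadjusted p under 0.05 there was 1 carrier, Slc25a23, or 2.5% of the family against 13.3% of all genes. It was lower in adult samples, as were 7.01% of all genes at that p. For 0 of the 40 were the stages free of overlap, against 3.54% of all genes. The adult minus embryonic difference on the log2 scale was below 0 for 27 carriers and above 0 for 13, with a family median of -0.17. The same difference was below 0 for 50.1% of all genes, whose median was -0.00. A missed threshold does not show that the stages were alike: 95% intervals of the difference reached 0.51 to 2.64 to either side of the estimate, with a median of 1.17. For 11 carriers the interval lay wholly between -1 and 1, that is, within a 2-fold difference either way. These 11 included Slc25a21, Slc25a31, Slc25a32 and Slc25a35, which exceeded the background level described below on 0 arrays. Slc25a18 exceeded it on 1 array, and Slc25a34 and Slc25a51l1 on 2 arrays each. Tight intervals of such weak probe sets do not show that the transcripts were alike.

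**Figure D1:**
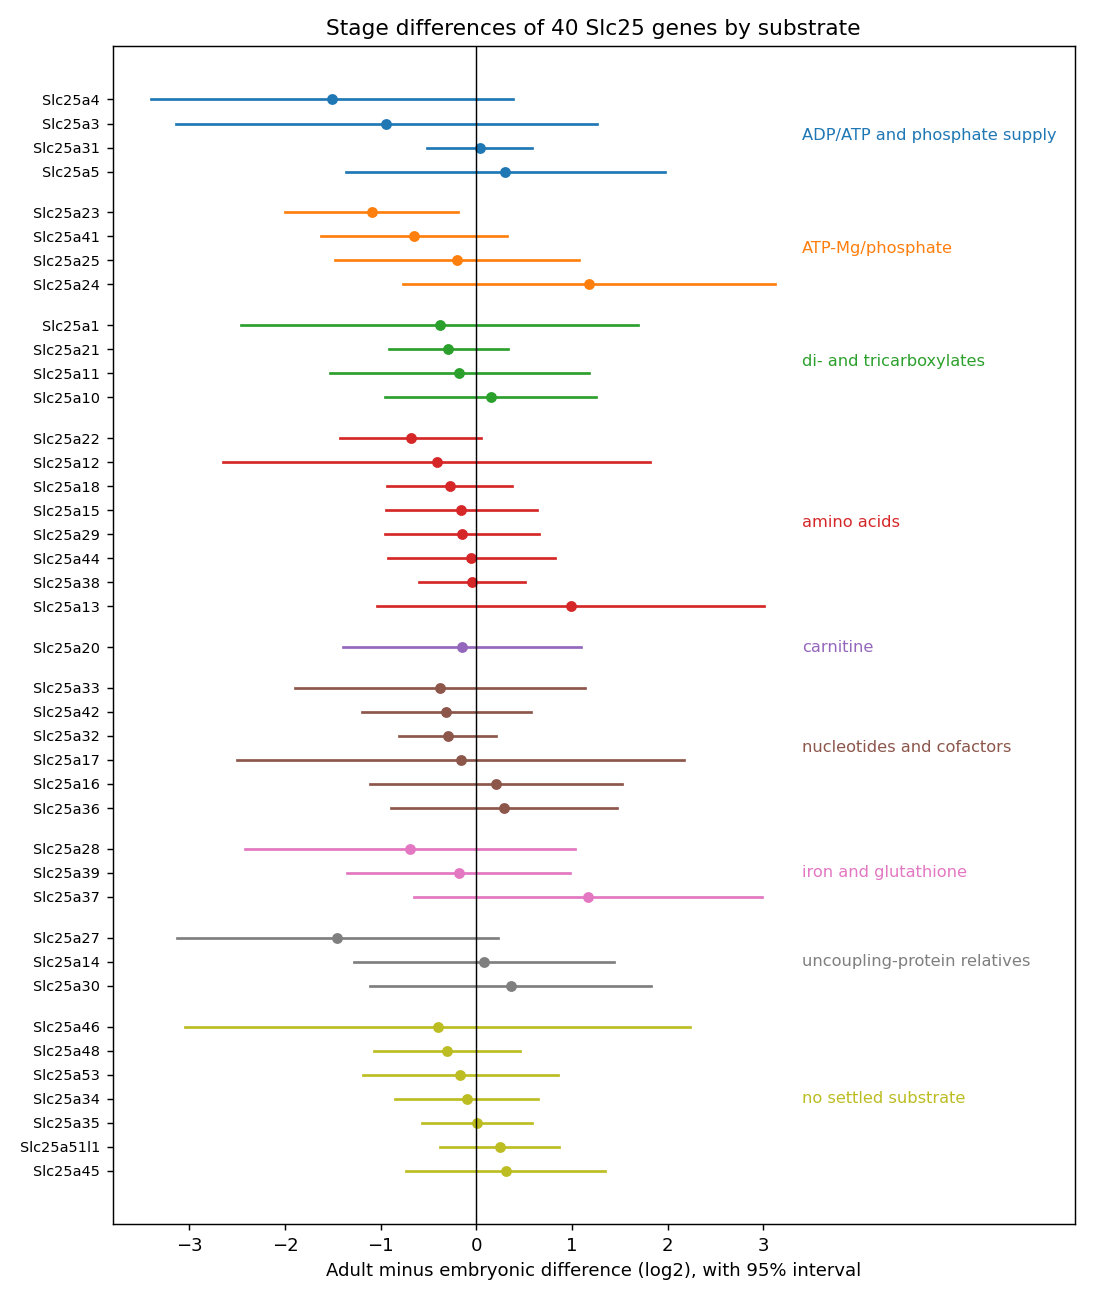
Adult minus embryonic difference (log2, horizontal axis) for each of the 40 carriers, grouped by substrate, with points for the limma estimates and lines for 95% intervals (5 adult and 5 embryonic arrays). The interval covers 0 for 39 carriers and lies below 0 for Slc25a23 alone.

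The arrays were of 2 kinds. Their values had a wide spread, with an SD above 1.80, the middle of the SD range over arrays, on adult replicates 4 and 5 and embryonic replicates 1 and 5, and a narrow one on the other 6. Of the 40 carriers, 10 to 30 exceeded a background level on single adult arrays and 21 to 34 on single embryonic arrays. For each array that level was set by 75 probe sets of olfactory and taste receptors, lens crystallins, placental prolactins and other genes with a narrow tissue range, at their 95th percentile. Of 10 markers of sensory axons, 6 exceeded background on all adult arrays and 9 on all embryonic arrays. At a limma adjusted p of 0.05, 5 of these 10 passed as lower in adult samples (0.647% of all genes). Of 11 macrophage markers 7 passed as higher (0.612% of all genes). By sign alone, 8 of the 10 axon markers were below 0 (50.1% of all genes) and all 11 macrophage markers above 0. Array means of the macrophage list were 7.34 to 8.97 in adult and 3.23 to 6.04 in embryonic samples. Of the Schwann cell, satellite glia, fibroblast, endothelium and muscle lists 0 genes passed in limma, against 1.26% of all genes. At an unadjusted p under 0.05 there were 2 of 8, 1 of 6, 2 of 8, 1 of 4 and 1 of 5 in the same order, against 13.3% of all genes. Of 3 measured blood genes 1 passed in limma at the adjusted p of 0.05, lower in adult samples (0.647% of all genes). All 3 blood differences were below 0. Fewer axons and less RNA per axon cannot be told apart in such samples, and the part of other cells in the carrier values was not tested.

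Above background on all arrays of a stage were 9 carriers in adult samples (22.5%, against 24.5% of all genes) and 16 in embryonic samples (40%, against 32.5%). The gap between stages rests on 1 array. Without adult replicate 2, and so with 1 adult array fewer to pass, the counts were 17 in adult and 16 in embryonic samples. The adult count over all genes rose too, from 3488 to 4757, against 4621 in embryonic samples. After cyclic loess scaling the carriers numbered 15 and 16 in the same order (all genes 4784 and 4732). The counts rest as well on the genes that set the background. A wider set of 111 probe sets, which also took widely expressed names such as Cryab, gave 3 and 5 (all genes 847 and 1102). Olfactory and vomeronasal receptors alone gave 10 and 19 (all genes 4300 and 5800). As first counted, 7 carriers passed on all 10 arrays (17.5%, against 18.9%). That number was 1 with the wider set and 12 without adult replicate 2. The same counts over all genes were 2680, 500 and 3376. The 7 were the phosphate carrier Slc25a3, the ADP/ATP translocases Slc25a4 and Slc25a5, the glutamate carrier Slc25a22, the pyrimidine nucleotide carrier Slc25a36, the glutathione carrier Slc25a39 and the outer membrane protein Slc25a46. At the other end, Slc25a21, Slc25a31, Slc25a32 and Slc25a35 exceeded background on 0 arrays. Slc25a31 is known as the ADP/ATP translocase of the testis. For these 4 genes a weak probe set and an absent transcript cannot be told apart.

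Slc25a3, Slc25a4 and Slc25a5 supply the ATP synthase with its substrates and export the product, and their promoters are shown because they share this task while Slc25a4 and Slc25a5 differed in opposite directions between stages, neither past the test. The last 170 bases before the start of each gene are given 5′ to 3′ on the gene's strand, from RefSeq, build GRCr8, with capitals marking CCGGAAG, a core to which ETS factors such as the mitochondrial regulator GABP bind.
Slc25a3: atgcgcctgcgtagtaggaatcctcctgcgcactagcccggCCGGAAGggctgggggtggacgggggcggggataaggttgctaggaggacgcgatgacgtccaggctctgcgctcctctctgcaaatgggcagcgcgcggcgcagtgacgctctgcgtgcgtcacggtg
Slc25a4: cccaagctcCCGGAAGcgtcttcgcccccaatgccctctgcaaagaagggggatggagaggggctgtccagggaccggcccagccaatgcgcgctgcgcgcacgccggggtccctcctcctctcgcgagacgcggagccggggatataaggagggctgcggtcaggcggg
Slc25a5: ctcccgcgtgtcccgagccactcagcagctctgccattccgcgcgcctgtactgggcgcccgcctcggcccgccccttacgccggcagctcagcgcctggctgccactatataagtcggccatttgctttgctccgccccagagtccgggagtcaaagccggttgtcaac
They lie at chr7:27506628-27506797 (minus strand), chr16:52805351-52805520 (plus strand) and chrX:120897446-120897615 (plus strand). In the 250 bases before the start, on either strand, CCGGAAG occurred in 5 of 34 carriers that had a promoter in the table (14.7%) and in 7.27% of all 33469 promoters. The 5 were Slc25a3, Slc25a4, Slc25a14, Slc25a20 and Slc25a38. CCAAT, read the same way, occurred in 19 of 34 carriers (55.9%), among them Slc25a1, Slc25a4 and Slc25a11, and in 34% of all promoters. The NRF1 motif occurred in 0 of 34 carriers and in 3.75% of all promoters. Such matches describe the letters in the window and nothing more.

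Slc25a4, the ADP/ATP translocase that prevails in heart, muscle and brain, was at 4.74, 5.85, 5.85, 9.53 and 8.88 on adult replicates 1 to 5 and at 8.39, 8.12, 8.96, 7.84 and 9.09 on embryonic replicates 1 to 5 (RMA values, log2). The 3 adult arrays of narrow spread lay below every embryonic array, while adult replicates 4 and 5 lay within or above the embryonic range, so the stages overlapped. Slc25a4 had a log2 difference of -1.51 ± 0.86 (SE, n = 5), a 95% interval of -3.40 to 0.38 and a limma adjusted p of 0.65. Slc25a5, the translocase of growing cells, was at 9.01, 9.29, 5.79, 10.38 and 9.98 on adult arrays and 8.82, 8.54, 7.69, 9.18 and 8.70 on embryonic arrays. Adult samples were on both sides of the embryonic ones, with replicate 3 far down and replicates 4 and 5 on top. The log2 difference of Slc25a5 was 0.30 ± 0.76 (SE; adjusted p = 0.97).

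Slc25a3, which brings phosphate into the matrix together with protons, was at 7.35, 6.96, 5.29, 10.86 and 10.46 on adult arrays and 9.29, 9.69, 9.05, 7.74 and 9.84 on embryonic arrays. Adult samples split into 3 arrays below and 2 above all embryonic arrays. The difference was -0.94 ± 1.00 (SE; 95% interval -3.14 to 1.26; adjusted p = 0.88). The median difference over the 4 genes of ADP/ATP and phosphate supply was -0.45.

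Of the 4 carriers that exchange ATP-Mg for phosphate and so set the adenine nucleotide pool of the matrix, most of them under the control of calcium, Slc25a23 came nearest to a call. It was at 3.46, 3.70, 4.63, 3.31 and 3.25 on adult arrays and 4.94, 3.66, 5.78, 4.88 and 4.55 on embryonic arrays. These values exceeded background on 3 adult and 5 embryonic arrays. In 4 of 5 adult samples the value lay at or under 3.70, and in 4 of 5 embryonic samples at or over 4.55. The log2 difference of Slc25a23 was -1.09 ± 0.41 (SE; 95% interval -1.99 to -0.19; limma unadjusted p = 0.022, adjusted p = 0.36). Its other 2 probe sets differed by 0.37 (adjusted p = 0.84) and 0.19 (adjusted p = 0.96), of opposite sign. Slc25a24, another such carrier, averaged 7.29 ± 1.24 in adult and 6.12 ± 1.85 in embryonic samples (SD, n = 5; adjusted p = 0.78). Slc25a25 and Slc25a41 differed by -0.20 and -0.65 on the log2 scale (adjusted p = 0.97 and 0.74).

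Carriers of di- and tricarboxylates feed the export of citrate and the malate shuttle. Slc25a1, the citrate carrier, was at 4.41, 3.91, 5.68, 8.68 and 8.68 on adult arrays and 6.69, 6.47, 5.99, 7.76 and 6.36 on embryonic arrays. As for Slc25a3, the adult values stood apart in 3 arrays under and 2 over the whole embryonic range. Its mean difference was -0.38 ± 0.94 (SE; adjusted p = 0.97). The oxoglutarate carrier Slc25a11 was at 6.43, 4.08, 6.16, 7.36 and 8.0 on adult arrays and 6.54, 6.95, 6.60, 6.58 and 6.26 on embryonic arrays. Embryonic values of Slc25a11 were tightly grouped (6.58 ± 0.25, SD, n = 5), and adult ones were not (6.40 ± 1.49; adjusted p = 0.98). The dicarboxylate carrier Slc25a10 averaged 4.15 ± 1.13 in adult and 4.00 ± 0.40 in embryonic samples, above background on 2 adult and 5 embryonic arrays.

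**Figure D2:**
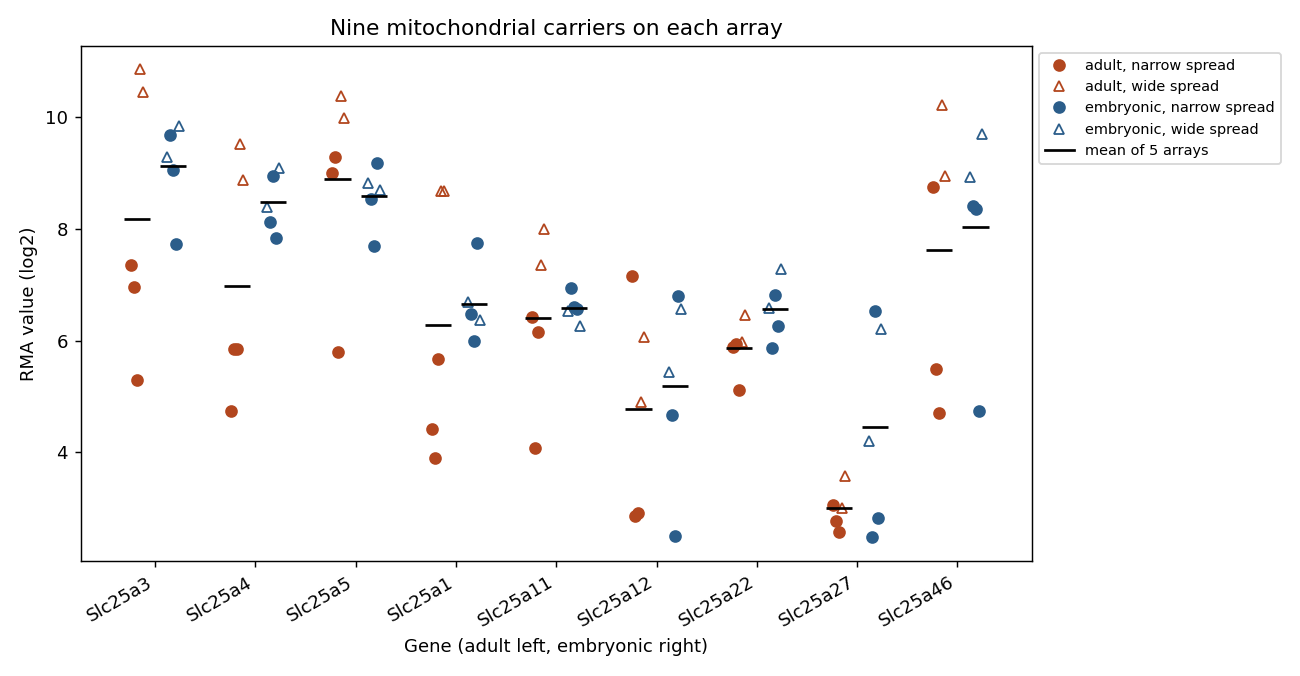
RMA values (log2, vertical axis) of 9 carriers on each of 10 arrays, adult left and embryonic right for each gene, circles for arrays of narrow and triangles for arrays of wide spread, bars for means of 5 arrays. Values compare within a gene only, and for Slc25a3, Slc25a4 and Slc25a1 the 3 adult circles lie below the embryonic points while the adult triangles lie among or above them.

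Among 8 carriers of amino acids 7 differences were below 0 and 1 above, with a median of -0.15 and the lowest adjusted p at 0.56. That was Slc25a22, which takes glutamate into the matrix, with 5.89, 5.94, 5.11, 5.98 and 6.45 on adult arrays and 6.58, 5.86, 6.82, 6.27 and 7.28 on embryonic arrays. Its values overlapped in the middle of the range, and the difference was -0.69 ± 0.33 (SE; 95% interval -1.42 to 0.05). Slc25a12, the calcium-sensitive aspartate/glutamate carrier of brain and muscle, was at 7.16, 2.85, 2.92, 4.91 and 6.06 on adult arrays and 5.43, 4.67, 2.50, 6.79 and 6.56 on embryonic arrays. It was spread over more than 4 units of the log2 scale within each stage, and its difference of -0.41 ± 1.01 (SE; adjusted p = 0.97) was small beside that. Slc25a13, citrin, its relative in liver, was above background on 2 arrays of either stage, with 6.92 and 5.28 on adult replicates 4 and 5 and 1.88 to 2.60 on the other adult arrays, against 1.88 to 3.87 on embryonic arrays. The ornithine carrier Slc25a15 had 6 probe sets, with differences from -0.31 to 0.30. Slc25a18, another glutamate carrier, exceeded background on 0 adult arrays and 1 embryonic array. The other 3, Slc25a29, Slc25a38 and Slc25a44, differed by -0.15 to -0.04 on the log2 scale.

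The carnitine carrier Slc25a20, which admits fatty acids for oxidation, averaged 4.45 ± 0.87 in adult and 4.60 ± 1.08 in embryonic samples (SD, n = 5; adjusted p = 0.98). Among 6 carriers of nucleotides and cofactors the differences ran from -0.38 for Slc25a33 to 0.29 for Slc25a36. Slc25a36 was at 6.99 ± 0.43 in adult and 6.70 ± 1.23 in embryonic samples (adjusted p = 0.95). The remaining Slc25a16 and Slc25a42, which is known to carry coenzyme A, differed by 0.21 and -0.31. The peroxisomal carrier Slc25a17 was above background on 2 adult and 4 embryonic arrays, and the folate carrier Slc25a32 on 0 of either. Of the iron carriers, mitoferrin 1, Slc25a37, averaged 6.17 ± 1.92 in adult and 5.00 ± 0.80 in embryonic samples (adjusted p = 0.76), and mitoferrin 2, Slc25a28, averaged 5.32 ± 1.48 and 6.02 ± 1.30 in the same order (adjusted p = 0.89). The highest value of Slc25a37, 9.13, was on adult replicate 4. Slc25a39, known for glutathione, was at 5.96 ± 0.81 in adult and 6.14 ± 0.99 in embryonic samples (adjusted p = 0.97).

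Slc25a27, a relative of the uncoupling proteins found mainly in brain and also called UCP4, was at 3.05, 2.77, 2.57, 3.01 and 3.58 on adult arrays and 4.20, 2.47, 6.54, 2.82 and 6.20 on embryonic arrays. Of the embryonic values 3 lay above every adult value, 1 lay among the adult values and 1 lay just below them. Slc25a27 exceeded background on 2 adult and 3 embryonic arrays. The difference was -1.45 ± 0.76 (SE; 95% interval -3.13 to 0.23; limma adjusted p = 0.60), and the other 2 probe sets of Slc25a27 differed by 0.02 and 0.03. Slc25a14 and Slc25a30, the other relatives of this kind, differed by 0.08 and 0.36 (adjusted p = 0.99 and 0.95). Among 7 genes with no settled substrate was Slc25a46, an outer membrane protein whose human gene is mutated in optic atrophy and neuropathy. The other 6 genes counted there, Slc25a34, Slc25a35, Slc25a45, Slc25a48, Slc25a51l1 and Slc25a53, differed by -0.31 to 0.31. Slc25a51l1 was placed among them only because no substrate list held its symbol. Slc25a46 was at 8.75, 5.49, 4.71, 10.22 and 8.95 on adult arrays and 8.93, 8.42, 8.36, 4.73 and 9.71 on embryonic arrays. Low values occurred in both stages, and the difference was -0.40 ± 1.20 (SE; adjusted p = 0.97). A dimmer probe set of Slc25a46 had no overlap between stages (2.94 ± 0.81 in adult and 2.03 ± 0.05 in embryonic samples, SD, n = 5; unadjusted p = 0.03, limma adjusted p = 0.40) but exceeded background on 2 of 10 arrays. Of all 18 probe sets that were not the brightest of their gene, 0 were called by limma, 1 was at an unadjusted p under 0.05, and 11 differed in the opposite direction from the brightest.

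Stage differences were also taken within each kind of array. Spread still differed by stage inside each kind. On narrow arrays the SD was 1.52 to 1.65 in adult and 1.68 to 1.71 in embryonic samples. On wide arrays it was 2.06 to 2.09 in adult and 1.96 to 1.97 in embryonic samples. The part of this in the stage differences within a kind, and in their contrast between kinds, was not tested. Within the 6 arrays of narrow spread, 30 of 40 differences were below 0, with a median of -0.28 (all genes -0.05), and within the 4 of wide spread 19 were, with a median of 0.04 (all genes 0.02). Of the carriers, 27 had differences of opposite sign in the 2 kinds, and 19 of these were lower in adult samples on narrow arrays and higher on wide ones. Neither count was taken over all genes. On narrow arrays the stages did not overlap for 6 carriers, 5 lower and 1 higher in adult samples, which is 15% of the family against 18.7% of all genes. The 5 lower ones were Slc25a1, Slc25a3, Slc25a4, Slc25a11 and Slc25a32, and the higher one was Slc25a45. Of these, Slc25a32 exceeded background on 0 arrays.

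Within narrow arrays 0 carriers were called by limma, and Slc25a4 came nearest, with a log2 difference of -2.82 ± 0.47 (SE, n = 3; limma unadjusted p = 0.00064, adjusted p = 0.068), where 1.18% of all genes were called. On wide arrays the same gene differed by 0.46 ± 0.40 (SE, n = 2; limma adjusted p = 0.66). Slc25a3 differed by -2.29 on narrow arrays (adjusted p = 0.32) and by 1.09 on wide arrays (adjusted p = 0.27). Slc25a1 differed by -2.07 (adjusted p = 0.31) and 2.16 (adjusted p = 0.095), and Slc25a11 by -1.15 (adjusted p = 0.65) and 1.28 (adjusted p = 0.23), likewise narrow and then wide. Unadjusted p values under 0.05 numbered 3 of 40 on narrow arrays (7.5%, against 14.5% of all genes) and 8 of 40 on wide arrays (20%, against 19.8%), where 0 genes of the whole table were called by limma.

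The difference between both kinds of array was tested with an interaction term, chosen after the data were seen, and 0 of 40 carriers were called, against 0.0914% of all genes. At an unadjusted p under 0.05 there were 7 carriers (17.5%, against 12.9% of all genes), and all had a more positive difference on wide arrays. They were Slc25a1 (4.23 ± 0.88, SE; limma adjusted p = 0.14), Slc25a4 (3.29 ± 0.70; adjusted p = 0.15), Slc25a3 (3.39 ± 1.01; adjusted p = 0.28), Slc25a13 (3.22 ± 0.97; adjusted p = 0.29), Slc25a10 (1.90; adjusted p = 0.26), Slc25a11 (2.43; adjusted p = 0.42) and Slc25a37 (3.39; adjusted p = 0.44). A stage effect that differs between the kinds of array was thus not shown for any carrier. Estimates were of opposite sign on narrow and wide arrays for 27 of 40 carriers, a share not taken over all genes. Among those of 1 sign in both, Slc25a22 differed by -0.67 and -0.71 on narrow and wide arrays and Slc25a27 by -1.14 and -1.91. Slc25a23 differed by -0.84 and -1.46, and Slc25a24 by 0.80 and 1.74. The fibroblast markers, 8 genes, had median differences of -0.62 on narrow and 3.62 on wide arrays, and array means of 3.63 to 7.84 in adult and 3.90 to 5.10 in embryonic samples. Their part in the carrier values was not tested. With stage accounted for, the spread of the arrays itself gave a call for 1 carrier, against 3.16% of all genes. It was Slc25a44, which takes up branched-chain amino acids (1.06 on the log2 scale, wide minus narrow, limma adjusted p = 0.049). The kinds of array were split by the spread of these same values, so such a call is not independent of the split. Of the 449 genes called, 372 were higher on wide arrays.

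**Figure D3:**
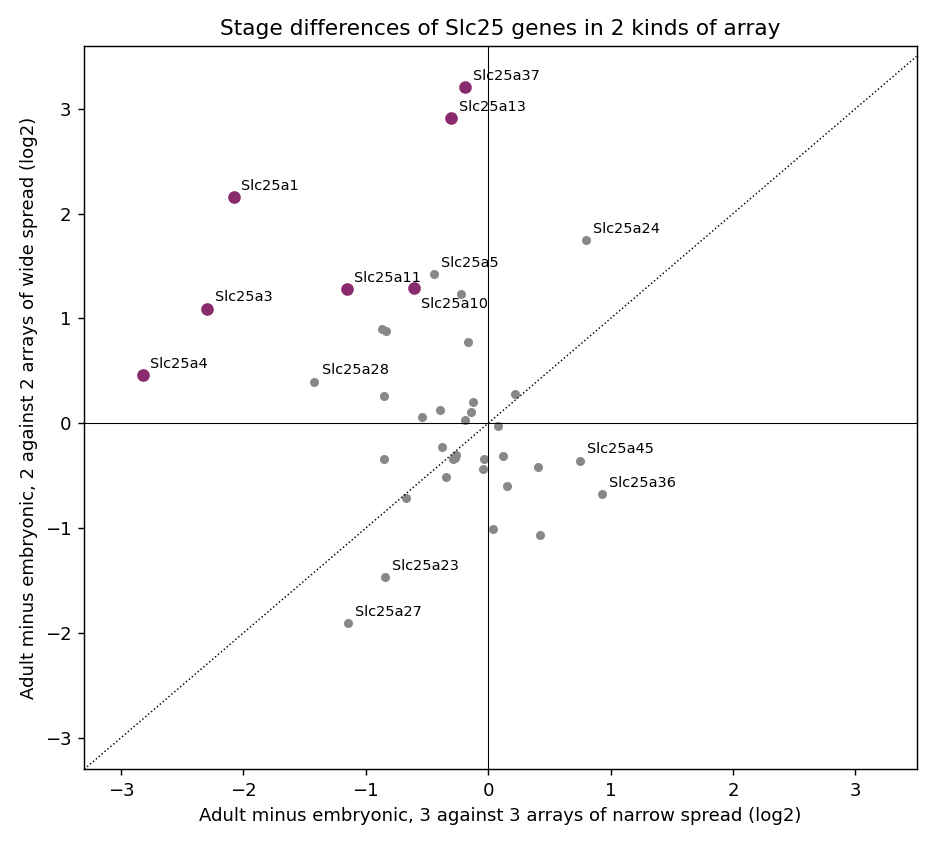
Adult minus embryonic differences (log2) of the 40 carriers on 6 arrays of narrow spread (horizontal axis) and on 4 of wide spread (vertical axis). Purple points are the 7 carriers with an unadjusted interaction p under 0.05, all above the dotted line of equal differences, and 0 of them passed after adjustment.

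Close relatives with the same substrate were also set against each other on each array, which removes what an array does to both alike. Only the contrast of such a difference between stages has a meaning, since probe sets have their own brightness. Slc25a4 minus Slc25a5 was -4.26, -3.44, 0.06, -0.86 and -1.10 on adult arrays and -0.43, -0.43, 1.26, -1.34 and 0.40 on embryonic arrays. The stages overlapped, and adult minus embryonic it was -1.81 (exact permutation p = 0.10 over 252 labellings, two-sided; adjusted p = 0.24 over 5 pairs). The same contrast was -2.27 for Slc25a23 minus Slc25a24 (exact permutation p = 0.079, adjusted p = 0.24), -1.86 for Slc25a28 minus Slc25a37 (exact permutation p = 0.14, adjusted p = 0.24) and -1.40 for Slc25a12 minus Slc25a13 (exact permutation p = 0.39, adjusted p = 0.39). Slc25a13 exceeded background on 4 of 10 arrays, which limits that pair. The pair of Slc25a23 and Slc25a24 rests on the brightest Slc25a23 probe set (-1.09), while the other probe sets of Slc25a23 differed by 0.37 and 0.19. The fifth pair, Slc25a18 and Slc25a22, is given no contrast, since Slc25a18 exceeded background on 1 of 10 arrays, though it is counted in the adjustment. The smallest p that this test allows is 0.0079, and 0 of the other 4 pairs reached an unadjusted p of 0.05. The 5 pairs were chosen after the data were seen.

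**Figure D4:**
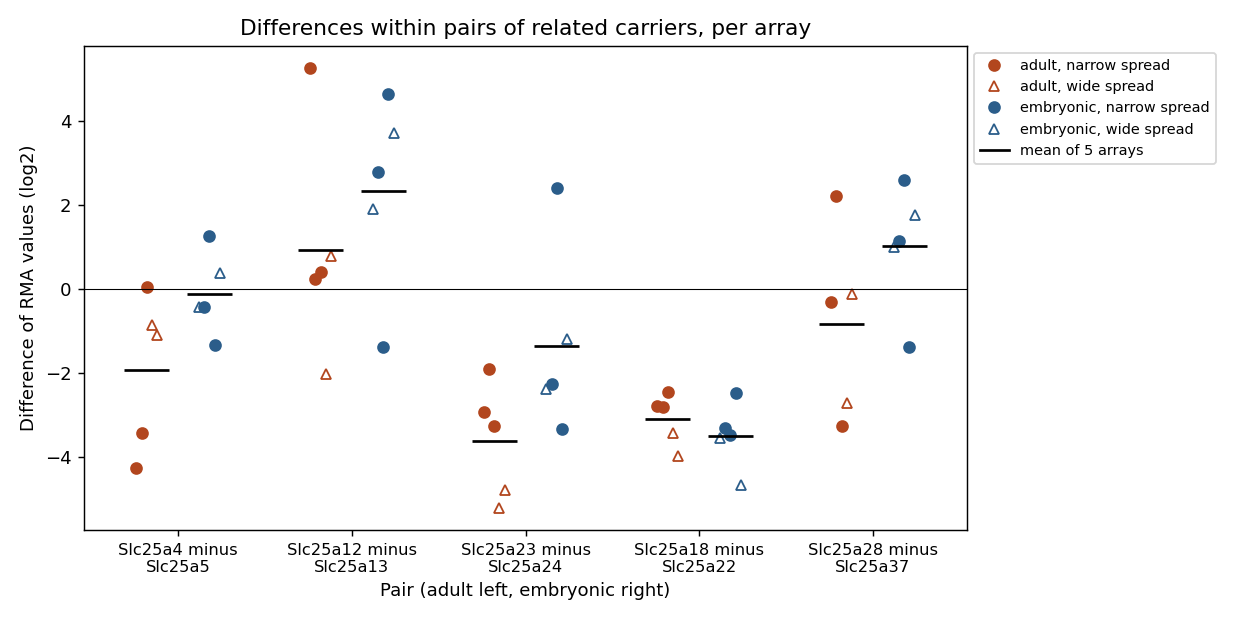
Differences between 2 related carriers on the same array (RMA values, log2, vertical axis) for 5 pairs, adult left and embryonic right, circles for arrays of narrow and triangles for arrays of wide spread, bars for means of 5 arrays. The stages overlap in every pair, and for Slc25a18 minus Slc25a22 the first gene was above background on 1 of 10 arrays.

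Other mitochondrial genes were taken from lists of related functions. Carriers that bear other symbols had 0 of 5 genes called, channels and transporters of other families 0 of 14, proteins that import carriers 0 of 12, and enzymes of the citric acid cycle and its shuttles 0 of 16. All counts are from limma, against 1.26% of all genes, with 1, 2, 2 and 2 genes at an unadjusted p under 0.05, against 13.3% of all genes. Their median differences were 0.12, -0.48, -0.67 and -0.58. On narrow and wide arrays the medians were -1.12 and 0.56 for the citric acid cycle and -1.14 and 0.31 for import. Over narrow arrays alone, where 1.18% of all genes were called, 1 gene of each of these 2 lists was called. Timm22, the core of the translocase that inserts carriers into the inner membrane, differed by -3.14 on narrow arrays (limma adjusted p = 0.011) and 1.27 on wide arrays (limma adjusted p = 0.20). Idh3b, a subunit of isocitrate dehydrogenase, differed by -3.38 on narrow arrays (limma adjusted p = 0.021) and -0.70 on wide arrays (limma adjusted p = 0.64). Over all 10 arrays neither passed (limma adjusted p = 0.77 and 0.35). Both genes exceeded background on 2 adult and 5 embryonic arrays. On the narrow adult arrays Timm22 was at 2.68 to 2.81 and Idh3b at 1.76 to 2.34, all below a background of 3.67 to 4.16. The size of these differences thus rests on values at the floor. Got2, the mitochondrial aspartate aminotransferase that works beside Slc25a12 and Slc25a11, differed by -3.62 on narrow arrays (adjusted p = 0.32) and 0.57 on wide arrays (adjusted p = 0.52), with an adjusted p of 0.70 over all arrays. Vdac1, the pore of the outer membrane, averaged 6.59 ± 1.10 in adult and 7.80 ± 0.71 in embryonic samples (SD, n = 5; adjusted p = 0.49), and Mpc1, a subunit of the pyruvate carrier, 7.72 ± 0.74 and 6.19 ± 1.42 in the same order (adjusted p = 0.45).

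Among adapters that tie mitochondria to motors, 1 gene was called. Trak2, which joins mitochondria to kinesin and dynein, was at 6.55, 8.28, 7.23, 7.75 and 6.36 on adult arrays and 11.85, 11.78, 11.75, 10.01 and 11.30 on embryonic arrays. Every adult value lay below every embryonic value. Trak2 fell by 4.10 ± 0.47 on the log2 scale (SE, n = 5; limma adjusted p = 0.0024), with differences of -3.83 on narrow and -4.52 on wide arrays. On either kind of array alone the call was lost (adjusted p = 0.075 and 0.11). It was 1 of 6 adapters, whose median difference was -1.91, and at an unadjusted p under 0.05 there were 4 of 6, all with lower adult means, against 7.01% of all genes in that direction. The list of 10 sensory axon markers had a median of -2.78, with 7 lower in adult samples at that p. Trak1, the relative of Trak2, averaged 4.48 ± 1.63 in adult and 7.84 ± 0.77 in embryonic samples (limma adjusted p = 0.065). On narrow arrays Trak1 differed by -4.90 (limma adjusted p = 0.014) and on wide arrays by -1.05 (limma adjusted p = 0.59). It exceeded background on 3 adult and 5 embryonic arrays. Fez1, a kinesin adapter, differed by -2.58 ± 0.74 (SE; limma adjusted p = 0.18), and Snph, syntaphilin, which anchors axonal mitochondria, by -1.24 ± 0.45 (SE; limma adjusted p = 0.33). Rhot1, the mitochondrial GTPase to which Trak1 and Trak2 bind, averaged 4.57 ± 1.46 in adult and 5.34 ± 1.58 in embryonic samples (limma adjusted p = 0.89).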

How the data were processed

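The deposited values are log2 intensities that the authors summarised by RMA, per the submitters' processing notes, from Affymetrix rat expression arrays. Neither version nor options of RMA are stated, and base 2 was taken from the range of the values. RMA compresses differences of weak probe sets, and precision is limited by the number of arrays. Left out were 57 control probe sets, and stage differences over the other 31042 came from limma 3.58.1 (R 4.3.3, two-sided lmFit and eBayes, no filter), which was tested on simulated data. The labels call the samples biological replicates. Symbols came from the platform annotation, and 2 Slc25 probe sets with several genes were not used.

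Carriers given array by array were any called or free of overlap and 9 fixed ones. Those of Slc25a13 and Slc25a23 were added after their values were seen, as were Slc25a24, Slc25a36 and Slc25a37 as examples and, of other lists, Timm22, Idh3b, Fez1 and Snph. The members and lists were chosen with earlier results of these data known. The interaction test, the carrier pairs, the promoter motifs and the background level were chosen after the data were seen. For the background, receptors of smell and pheromones alone were used at first, then a wider symbol pattern. That pattern was replaced, with its counts known, because it held genes such as Cryab that are widely expressed. Results of all 3 are given. Figures used Python 3.11.15 and matplotlib 3.10.9.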

Additional observations from a re-analysis of the deposited data

Results flagged for a closer look

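Single arrays stood far from the other 4 of their stage in 4 of 110 groups of 5 arrays, and chance flags about 1 group in 20. Embryonic replicate 4 was low for Slc25a46 at 4.73, against 8.36 to 9.71 on the other embryonic arrays, and high for Slc25a51l1 at 3.06, against 2.44 to 2.59. Embryonic replicate 5 was high for Slc25a33, a carrier of pyrimidine nucleotides, at 6.52, against 2.66 to 3.42. Embryonic replicate 3 was high for the import chaperone Timm10 at 8.63, against 4.90 to 5.96.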

How the results depend on the processing

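In 22 alternatives to the processing limma called 0 of the carriers it tested, which were 40 in 21 alternatives and 30 after the filter on weak probe sets, with a smallest adjusted p of 0.068, that of Slc25a4 on arrays of narrow spread. Unadjusted p values under 0.05 numbered 0 to 8. The family median was -0.28 on arrays of narrow spread to 0.04 on those of wide spread over alternatives other than leaving out 1 array, and -0.21 to -0.04 when 1 array was left out. With the replicate number as a block 0 carriers were called, while the median of -0.17 cannot change under a block in this balanced design. Same-numbered samples had correlations of their deviations from -0.12 to 0.28, so the numbers were not taken as pairs. Among 870 recomputed carrier differences, none of them called, 89 changed sign, and 10 carriers kept their sign throughout, among them Slc25a22, Slc25a23, Slc25a24 and Slc25a27. Part of the 870 could not change. The filter, the trend and robust variance, the replicate block and spread as a term leave each difference as it was. Leaving out probe sets of shared sequence changed no carrier's probe set. The kept signs thus rest on the other alternatives. Carriers above background on all adult arrays numbered 9 to 17 with 1 array left out, the highest without adult replicate 2, where embryonic samples had 16. The adult count over all genes rose there too, from 3488 to 4757. Carriers on all adult arrays numbered 15 after cyclic loess (16 in embryonic samples) and 29 on arrays of wide spread (28 in embryonic samples). With background at the 90th or 99th percentile there were 12 or 8 (21 or 12 in embryonic samples). The wider set of 111 probe sets, tried earlier and put aside, raised the level to between 5.23 and 6.71 over arrays, from which 3 carriers in adult and 5 in embryonic samples stood out. Receptors of smell and pheromones alone, 19 probe sets, gave 10 and 19, where the set used gave 9 and 16. Trak2 kept its call in 20 of 22 alternatives and lost it on arrays of narrow (adjusted p = 0.075) or wide spread (0.11), which hold fewer samples. Over all genes the count of calls, 179 as reported, was 299 after the filter on weak probe sets, 276 with spread as a term, 0 on arrays of wide spread, and 117, 101, 117, 106 and 107 without adult replicates 1 and 4 and embryonic replicates 2, 3 and 5.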
